A study of Mus musculus with 2 samples.

Results

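Deep intronic regions of long genes are stretches of accessible chromatin that lie inside the introns of protein-coding genes, far from any gene start. They were taken from the deposited list of ATAC-seq peaks thresholded on the irreproducible discovery rate (IDR), a measure of how well a peak's rank holds between sets of reads. Overlapping or touching peaks were joined into merged regions, and the peak with the greatest fold enrichment gave a region its summit. A region was kept if its summit lay in the body of a protein-coding gene, in no exon of any GENCODE gene, and over 50 kb from the nearest protein-coding transcript start. By this rule 1455 of 29415 merged regions were members, 4.95% of all (exact binomial 95% interval 4.70 to 5.20%). The rule set no limit on height. It used fold enrichment only to pick the summit among a region's peaks, so the fold given for a region is that of its highest peak.

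ATAC-seq inserts sequencing adapters into open chromatin with the Tn5 transposase, and it was applied to Treg cells that had experienced inflammation. The cells came from 1 male adult mouse, aged 6 months, of the strain Foxp3CreERT2 x Rosa26YFP. In this cross a drug-inducible Cre recombinase is driven by Foxp3, the defining transcription factor of Treg cells, and a yellow fluorescent protein reports Cre activity. The labels also give bone marrow hematopoietic cells as the origin of the primary cells, and they name neither the inflammation nor the isolation. There was 1 biological replicate, sequenced as technical replicates 1 and 2, which form a single group. Conditions could therefore not be compared, and the spread between animals is unknown. Resting Treg cells were not analysed here. The promoters of 6 of 6 T cell markers (Cd3e, Cd3d, Cd3g, Cd2, Cd5, Lck) and of 4 of 4 Treg markers (Foxp3, Il2ra, Ctla4, Ikzf2) held an accessible region. None of 4 B cell, 4 myeloid, 2 NK cell and 2 erythroid marker promoters did. These marker sets are short. By the same measure, most promoters in the lists of lymphocyte transcription factors and antigen receptor signalling genes used below also held a region. Some, such as those of Tcf7, Ikzf3 and Prkcq, did not. The depth of the libraries is unknown, and all heights are those of the authors' peak caller. In a bulk sample, a site open in fewer cells and a site that is less open in each cell cannot be told apart.

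Introns of long genes can hold enhancers, short stretches of DNA where transcription factors bind and from which a promoter at a distance is regulated. Such elements are bound in T cells by ETS and RUNX family factors, which act throughout the lineage, and by AP-1 factors, which respond to antigen receptor signals. Other intronic sites bind CTCF, a zinc finger protein that anchors chromatin loops. An enhancer inside a gene may act on its host or on a neighbour, and accessibility alone does not show which.

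The sequences around the summits of the 4 members with the greatest fold enrichment are shown first, since they are the members that rose highest above background. Each runs 60 bp to either side of the summit, on the plus strand of GRCm38 (mm10), and capitals mark matches within 50 bp of the summit, on either strand, to the motifs of ETS (AGGAAG), RUNX (TGTGGT), AP-1 (TGANTCA) or CTCF (CCANNAGNNGGC). The windows are chr2:43673747-43673867 in intron 12 of Kynu, chr11:119671138-119671258 in intron 2 of Rptor, chr6:53402690-53402810 in intron 4 of Creb5 and chr2:112714806-112714926 in intron 65 of Ryr3.
Kynu intron: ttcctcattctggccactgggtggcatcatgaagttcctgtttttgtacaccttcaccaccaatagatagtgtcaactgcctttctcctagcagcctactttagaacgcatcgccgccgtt
Rptor intron: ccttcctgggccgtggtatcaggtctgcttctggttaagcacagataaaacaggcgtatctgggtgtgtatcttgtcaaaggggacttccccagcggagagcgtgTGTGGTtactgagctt
Creb5 intron: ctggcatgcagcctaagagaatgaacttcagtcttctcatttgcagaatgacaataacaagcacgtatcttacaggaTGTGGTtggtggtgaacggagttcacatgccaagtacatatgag
Ryr3 intron: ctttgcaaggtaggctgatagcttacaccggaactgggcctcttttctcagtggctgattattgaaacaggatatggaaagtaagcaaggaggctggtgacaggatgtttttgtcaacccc

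The Kynu and Ryr3 windows held none of these 4 motifs. The match in Creb5 overlapped a composite of an ETS and a RUNX site (GGATGTGG). A match is a description of the letters and does not show that a factor was bound.

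The next set shows the members of greatest fold with an AP-1 and with a CTCF match, chosen to let the motifs be seen in place; the corresponding RUNX member is the Rptor window already given. They are chr4:150545017-150545137 in intron 11 of Rere, which held AP-1, ETS and RUNX matches, and chr13:109776209-109776329 in intron 7 of Pde4d, which held a CTCF match.
Rere intron: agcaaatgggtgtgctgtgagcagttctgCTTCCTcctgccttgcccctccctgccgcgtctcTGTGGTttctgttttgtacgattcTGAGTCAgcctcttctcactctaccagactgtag
Pde4d intron: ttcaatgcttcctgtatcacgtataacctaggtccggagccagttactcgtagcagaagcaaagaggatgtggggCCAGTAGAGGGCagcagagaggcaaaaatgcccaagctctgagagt

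The region in Kynu, the gene of the tryptophan-degrading enzyme kynureninase, had the greatest fold enrichment of all members, 31.6 over 354 bp. It was the only member in that gene, lay 75.0 kb from the nearest coding start, and the promoter of Kynu held no region. The region in Rptor, which encodes the Raptor subunit of the growth regulator mTORC1, followed with a fold of 29.3, and that promoter was accessible. Creb5, a transcription factor gene of the CREB family, had a region of 28.8, and Ryr3, which encodes a calcium release channel, had one of 27.6. Neither gene had an accessible promoter. The −log10 p of the Kynu region in the pair of sets that the authors ranked against each other was 125.0 and 99.2. The values were 153.6 and 121.5 at Rptor, 90.3 and 137.4 at Creb5, and 314.4 and 284.8 at Ryr3. All 4 were thus high in both sets, though the labels do not tie a set to a library. The list was thresholded on how well these sets matched, and the 4 were picked for their fold, so this was largely set beforehand.

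The next members by fold lay in Slco3a1 (27.5), an organic anion transporter gene, in Tmcc3 (26.9), and in Prkg1 (26.8), which encodes a cGMP-dependent protein kinase. Regions in Msra (26.3), which encodes a methionine sulfoxide reductase, and in St8sia6 (26.3), a sialyltransferase gene, were also among the 10 highest. Of the 10, 5 lay in genes without an accessible promoter (Kynu, Creb5, Ryr3, Prkg1 and Msra), as did 24 of the 100 highest members and 18.01% of all members.

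Fold enrichment over the members ran from 1.61 to 31.6, with a median of 12.2 (95% interval of the median 11.9 to 12.5) and an interquartile range of 9.22 to 15.8. Other classes were measured alongside, each defined by the place of its summits. The median was 11.3 (11.1 to 11.4) in 7351 intronic regions between 1 and 50 kb of a start, 13.0 (12.8 to 13.2) in 2799 intergenic regions beyond 50 kb, and 15.4 (15.3 to 15.6) in 10802 promoter regions within 1 kb of a start. Deep intronic regions thus lay between nearer introns and distant intergenic DNA, and below promoters, with intervals that did not overlap. The intervals cover the number of regions, which all come from 1 mouse and are not replicates, so they do not say how far the medians would move in another animal.

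In width the members fell in the same order. Their median was 577 bp (562 to 593), with a range of 161 to 1660 bp, against 526 bp for nearer introns, 596 bp for distant intergenic regions and 909 bp for promoters, and the interval of distant intergenic regions (583 to 608 bp) overlapped theirs. More than 1 summit was called in 610 members (41.9%, interval 39.4 to 44.5%), against 79.4% of promoter regions. The median −log10 p was 67.9, against 67.3 in nearer introns and 177.3 at promoters, and the deposited score was at its ceiling of 1000 in 702 members (48.2%). The −log10 p values of both ranked sets lay within 2-fold of each other for 1423 members (97.8%), against 98.7% of all regions; the list was thresholded on how well these sets matched, so this share was largely set beforehand.

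The members were not spread evenly. Deep intronic space, the bases that meet the rule whether accessible or not, came to 336.6 Mb, 12.3% of the 2725.5 Mb on the chromosomes. It held 4.32 members per Mb, against 10.8 regions per Mb of the whole genome, a ratio of 0.401 (exact interval 0.381 to 0.421). The regions of the whole genome include 10802 promoter regions (36.7% of all), which the rule leaves out of deep intronic space. Part of this low ratio was thus set beforehand. Within introns the density fell at each step away from a start. It was 13.4 regions per Mb between 10 and 25 kb, 10.2 between 25 and 50 kb, 6.38 between 50 and 100 kb (905 members), 3.88 between 100 and 200 kb (414), 1.75 between 200 and 400 kb (111) and 1.01 beyond 400 kb (25). Outside genes it was 6.21, 3.25, 1.58 and 0.460 per Mb over the same last 4 steps. Intervals for introns and for DNA outside genes overlapped between 50 and 100 kb and between 200 and 400 kb. They did not overlap between 100 and 200 kb (3.52 to 4.28 against 3.03 to 3.47) and beyond 400 kb (0.651 to 1.49 against 0.395 to 0.532), where introns were denser. All space was counted over every base of the reference, unsequenced gaps included, and no region can be called in a gap. The part of such gaps in these differences was not tested. Height did not follow density: the median fold was 12.1, 11.9, 13.2 and 11.7 over the 4 steps in introns.

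**Figure D1:**
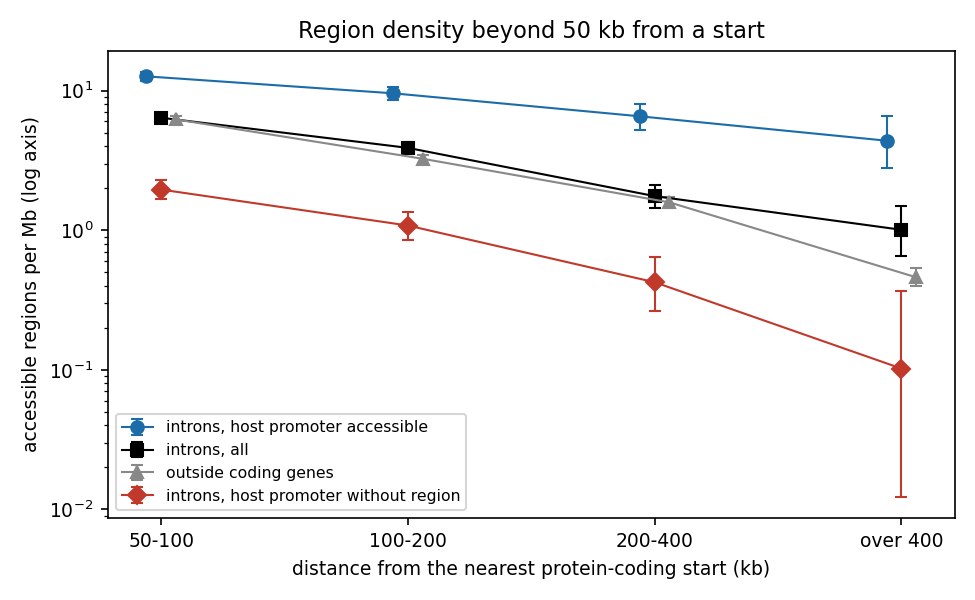
Accessible regions per Mb (log axis) against distance from the nearest protein-coding start in kb, for introns, for introns split by the state of the host promoter, and for DNA outside coding genes, with exact 95% Poisson intervals. Introns fell from 6.38 to 1.01 per Mb over the 4 steps, and at each step genes with an accessible promoter lay above genes without.

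The median member lay 85.5 kb from the nearest start (interquartile range 63.0 to 124.4 kb). The farthest was 673.3 kb away, in intron 26 of Diaph2, a formin gene on the X chromosome, with a fold of 13.8. A region in Il1rapl1 lay 651.8 kb from a start (fold 8.59), and the other 3 of the 5 farthest were in Wwox, at 630.7, 625.2 and 624.1 kb (folds of 9.44, 10.3 and 6.72). At the other end, the members just inside the limit lay in Elovl6 (50036 bp, fold 18.2), Tank (50037 bp, fold 14.5) and Pde4d (50049 bp, fold 13.5). The intronic regions just outside it lay in Armc2 (49989 bp, fold 22.6), Pole4 (49951 bp, fold 17.2) and Bcl11b (49864 bp, fold 6.92).

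Distance from a start did not mean distance from exons in general. The median member lay 5.17 kb from the nearest exon, and 487 (33.5%) lay over 10 kb away. For 1434 members the summit fell in an intron of the longest coding transcript of the host. The first intron held 15.4% of these, the second 16.2%, the third 12.1% and later introns 56.2%, close to the 15.5, 15.6, 11.8 and 57.1% of deep intronic space in them. Introns over 100 kb long held 430 (29.99%), although they made up 42.8% of deep intronic space. The nearest coding start belonged to the host gene for 1062 members (73.0%) and to another gene for 393. No margin was required, so a start of the host could be almost as near, as in Prkca. A start of a noncoding transcript lay within 1 kb of 29 members (1.99%, interval 1.34 to 2.85%), against 2.76% of nearer intronic and 8.11% of distant intergenic regions.

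Base composition and repeat content at the summits differed from the introns around them. The median GC content of the 101 bp at the summit was 48.5%, against 44.1% in windows of the same size 500 bp to either side and 40.9% over all deep intronic space. Of the summits, 8.32% (interval 6.95 to 9.85%) were in repeats soft-masked in the reference, against 29.0% of deep intronic space. Reads from repeats can fail to map to 1 place, and the part this played in the positions of the members was not tested. A CpG was present in 76.6% of the windows, with a mean of 1.66 CpG per window, against 8.34 at promoters.

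Of 21938 protein-coding genes, 2792 had any deep intronic space, and 612 of these (21.9%) held at least 1 member. Hosts were long, with a median of 194.5 kb, against 144.4 kb for all genes with deep space and 17.4 kb for all coding genes. The shortest host was 56.0 kb. Under the rule a host must reach over 50 kb from its own start. This minimum and the contrast with all coding genes were thus largely set beforehand. Of the 612 hosts, 312 held 1 member, 300 held 2 or more, 82 held 5 or more and 15 held 10 or more. The 50 hosts with most members held 30.3% of all. For 32 members the summit lay in more than 1 coding gene.

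Hosts whose own promoter was accessible carried most members. A promoter was counted as accessible if any base within 1000 bp of one of the gene's coding starts lay in a region. A gene without an accessible promoter is thus one where no region of the thresholded list was called there. Such genes include 2 of 29 lymphocyte transcription factor genes with deep space (Fli1 and Klf12) and 3 of 21 antigen receptor signalling genes. Of 1370 genes with deep space and an accessible promoter, 453 (33.1%) held a member, against 159 of 1422 (11.2%) without. Measured by space, genes with an accessible promoter had 33.6% of deep intronic space and 82.0% of members (1193). That is 10.5 members per Mb against 1.17, a ratio of 8.99 (exact interval 7.86 to 10.3). The difference held at each distance: it was 12.6 against 1.95 per Mb between 50 and 100 kb, 9.55 against 1.08 between 100 and 200 kb, 6.54 against 0.424 between 200 and 400 kb, and 4.37 against 0.102 beyond 400 kb. With the upper 50% of all regions by fold, used for members and promoters alike, the ratio was 2.92. Hosts whose promoter region lay below that threshold then counted as without an accessible promoter. The ratio for members of high fold with the promoter calls unchanged was not computed.

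The genes were also compared at like amounts of space. With an accessible promoter, 12.2% of genes with up to 25 kb of deep space held a member, 29.2% of those with 25 to 50 kb, 43.4% with 50 to 100 kb, 61.5% with 100 to 200 kb, 71.4% with 200 to 400 kb and 55.3% with more. Without one, the shares were 4.27, 6.98, 13.7, 16.3, 16.2 and 15.9%. With an accessible promoter the shares rose up to 400 kb of space and were lower beyond, with an interval for the last (38.3 to 71.4%) that overlapped that before it (61.8 to 79.8%). Without one, shares peaked at 16.3% over the 6 sizes.

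**Figure D2:**
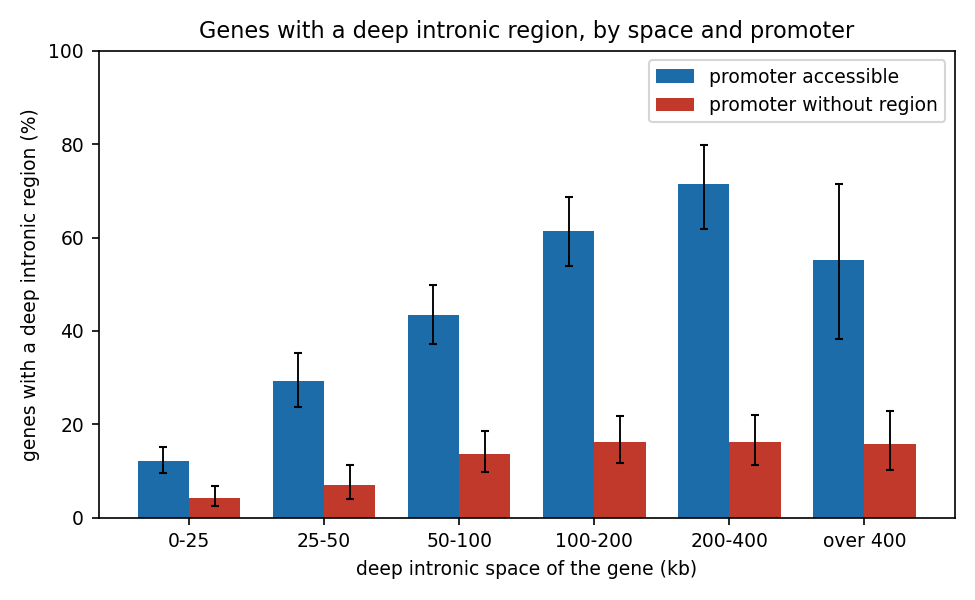
Share of genes with at least 1 deep intronic region (%), by the gene's amount of deep intronic space in kb, for genes with and without an accessible promoter, with exact binomial 95% intervals. Shares ran from 12.2 to 71.4% with an accessible promoter and from 4.27 to 16.3% without.

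The 262 members in hosts without an accessible promoter were not weaker. Their median fold was 13.3 (12.6 to 14.2), above the 11.9 (11.6 to 12.3) of members in hosts with one, at widths of 575 and 577 bp. They were more often alone: 33.2% (27.5 to 39.3%) had another region within 10 kb, against 47.4% (44.5 to 50.2%). The nearest coding start was their own host's in 62.6% (56.4 to 68.5%), against 75.3% (72.7 to 77.7%). The nearest start with an accessible promoter was a median of 159.9 kb away, against 87.2 kb. Their hosts could not supply such a start, so the direction of this last difference was largely set by the split. Within the 453 hosts with an accessible promoter, the highest member had a greater fold than the promoter in 242 (53.4%, interval 48.7 to 58.1%). A host with several members has more chances to exceed its promoter, and among the 213 hosts with 1 member the count was 83 (39.0%), with median folds of 13.4 for the member and 14.9 for the promoter.

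Wwox, which encodes an oxidoreductase with WW domains and spans a common chromosomal fragile site, held the most members. The gene is 913.1 kb long, and 25 of its 27 regions were deep intronic, all 25 of them in intron 8, which is 639.4 kb long. Their fold ran from 4.75 through a median of 11.3 to 21.5. The nearest start was that of Wwox for 14 members and that of Maf, a transcription factor gene that lies beyond the 3′ end of Wwox, for 11, at 356.2 to 617.1 kb. An ETS match was found in 14 of the 25, a RUNX match in 3, and an AP-1 match in 0. The member of greatest fold, 546.5 kb from the Wwox start, had −log10 p values of 108.0 and 95.7 in the ranked sets.

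A pair of protein kinase C genes followed. Prkca held 16 members in 262.4 kb of deep space, with folds of 4.91 to 16.8 (median 9.79). For 12 of them the nearest start was that of Apoh, the neighbouring gene of a plasma glycoprotein, at 69.5 to 171.3 kb. The most upstream coding start of Prkca was almost as near to these 12, at 70.1 to 171.8 kb, so nearness hardly separated Apoh from Prkca. Prkch, which encodes the eta isoform found in T cells, held 15 in 136.7 kb, with folds of 4.18 to 13.0 (median 8.86), and 14 lay nearest to its own start and 1 to that of Hif1a. Its 15 members were part of 27 regions in the gene body, whereas in Prkca all 16 regions in the body were members. The summits of 9 Prkch members lay within 33.3 kb of each other.

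Next came Ldlrad4, an inhibitor gene of TGF-beta signalling, Atxn1, which encodes the repressor ataxin 1, and Lpp, which encodes a focal adhesion protein, with 13 members each. In Ldlrad4 8 of 13 lay nearest to Fam210a, in Atxn1 4 of 13 nearest to Gmpr, and in Lpp all 13 nearest to Lpp itself. Then followed Hivep2, a zinc finger transcription factor gene, Ext1, which encodes an enzyme of heparan sulfate synthesis, Msi2, which encodes an RNA-binding protein, and Rad51b, a DNA repair gene, with 12 each. Abtb2 and Stk39, a kinase gene, had 11 each, as did Tox, described with the transcription factors. Levels differed among these hosts: the median fold was 14.6 in Ldlrad4, 14.1 in Rad51b and 13.4 in Ext1, but 7.92 in Msi2 and 5.06 in Hivep2. In Rad51b, 3 of 12 members lay nearest to Zfp36l1, an mRNA decay factor gene, and 9 to Rad51b. The promoters of the 12 hosts from Wwox to Stk39 were accessible.

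**Figure D3:**
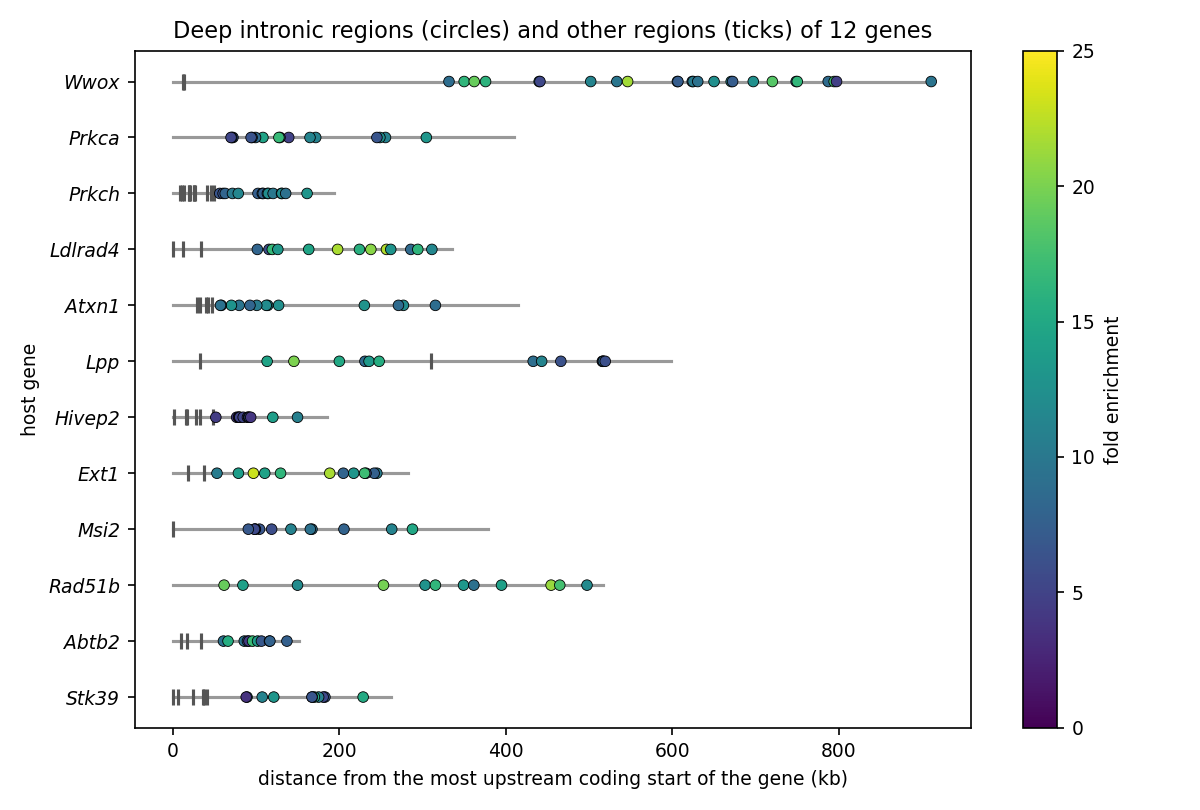
Positions of deep intronic regions (circles, coloured by fold enrichment) and of other regions with a summit in the gene body (ticks) in the 12 genes with most members (Tox, tied at 11, is not drawn), in kb from the gene's most upstream coding start; the grey line is the gene body, and a region counts as deep only if no coding start of any gene is within 50 kb. Wwox members begin 331.9 kb from its start, whereas 9 members of Hivep2 lie close together.

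Per 100 kb of deep intronic space, among hosts with 3 or more members, Bcl11b stood highest. This zinc finger gene, needed for commitment to the T cell lineage, held 6 members in 36.0 kb, or 16.7 per 100 kb. It was followed by Tbc1d16, a regulator gene of Rab GTPases (15.3), Nid1, which encodes the basement membrane protein nidogen (14.9), Mdfic (13.8) and Ikzf1, which encodes the lymphoid factor Ikaros (13.7). Each of the last 4 held 3 members in 19.6 to 21.9 kb, and Nid1 alone of the 5 had no accessible promoter. Members of these genes were low: the median fold was 4.97 in Bcl11b, 7.63 in Tbc1d16, 8.63 in Nid1, 7.31 in Mdfic and 7.45 in Ikzf1, against 12.2 over all members.

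Many members had close neighbours. Another region of any kind lay within 10 kb of 652 members (44.8%, interval 42.2 to 47.4%), against 63.8% of nearer intronic and 47.1% of distant intergenic regions. The median distance to the next region was 12.6 kb, against 6.80 and 11.2 kb. When members with summits up to 12.5 kb apart were linked, 1040 groups resulted. Of these, 784 were single members, 170 were pairs, and 86 held 3 or more members, with 331 members (22.7%) in all. The largest groups had 9 members, in Prkch and in Hivep2, where they spanned 16.9 kb with folds of 3.39 to 7.23. Abtb2 had a group of 8 over 30.8 kb. Groups of 6 lay in Bcl11b, Sntb1, Stk39, Plcb4 and Bach2, over 15.6 kb in Stk39 to 38.0 kb in Plcb4.

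Gene lists were used to describe which kinds of gene carried members, among genes with deep space and against the 21.9% of all such genes. The lists were chosen with earlier results of these data known, so their shares and intervals are descriptions and not independent support. Genes are not replicates, and the lists differed in how many genes had an accessible promoter, so the share among genes with one is given too, against 33.1% of all such genes. The lists also differed in deep space, which was not matched, and with an accessible promoter shares rose with space up to 400 kb. Median deep space was 50.1 kb over all genes with any, 33.1 kb for chromatin regulators, 55.7 kb for lymphocyte factors, 166.5 kb for calcium genes and 780.0 kb for neuronal genes. The median number of members per gene was 2 for lymphocyte transcription factors and 1 for the antigen receptor, calcium, cytokine and chromatin lists. It was 0 for the adhesion, neuronal and other-tissue lists and for all genes with deep space. Lymphocyte transcription factors had the greatest share, 21 of 29 genes (72.4%, interval 52.8 to 87.3%) and 19 of 27 with accessible promoters (70.4%). Tox, a factor of T cell exhaustion and development, held 11 members, reaching 242.3 kb from a start, with folds of 6.08 to 16.7. Bach2, a repressor gene known for its part in Treg cell differentiation, held 8 (4.07 to 16.9). The ETS family gene Etv6 held 7 (7.53 to 20.2), and Rora, which encodes a nuclear receptor, and Bcl11b held 6 each.

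Antigen receptor signalling genes had members in 12 of 21 (57.1%), and in 10 of 18 with accessible promoters (55.6%). After Prkch, the phosphoinositide phosphatase gene Inpp4b held 10 members (folds of 5.85 to 14.5). Cblb, which encodes a ubiquitin ligase that restrains T cell activation, held 7 (4.41 to 21.3). Vav3, an exchange factor gene, and Plcl2 held 4 each. The adaptor gene Gab2 had 143.6 kb of deep space, no accessible promoter and no member.

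Calcium and cyclic nucleotide signalling genes had members in 21 of 33 (63.6%), and in 14 of 17 with accessible promoters (82.4%). The median deep space of the 33 genes was 166.5 kb. Of all genes with an accessible promoter and 100 to 200 kb of deep space, 61.5% held a member. After Prkca came Itpr1, which encodes an inositol trisphosphate receptor, with 9, Prkce, a further protein kinase C gene, with 8, and Camk2d and Plcb4 with 7 each. The related receptor gene Itpr2 had an accessible promoter and 136.5 kb of deep space but no member. The channel genes Trpm3 (517.5 kb of deep space), Ryr2 (360.2 kb) and Cacna1c (284.8 kb) had neither an accessible promoter nor a member.

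Cytokine, TGF-beta and Notch pathway genes had members in 10 of 17 (58.8%), and in 9 of 14 with accessible promoters (64.3%). The cytokine receptor kinase gene Jak1 held 7 members in 55.7 kb of deep space (folds of 9.61 to 20.1), and Maml3, which encodes a Notch coactivator, held 7 in 227.2 kb (9.23 to 24.97). Nek7, a kinase gene of the NLRP3 inflammasome pathway, held 4. Tgfbr2, a TGF-beta receptor gene, held 3 (8.70 to 15.1), as did Maml2. Chromatin regulators had members in 9 of 17 (52.9%), and in 8 of 15 with accessible promoters (53.3%), with 9 in Arid1b, a subunit gene of the BAF remodelling complex, 6 each in Rere and in the histone deacetylase gene Hdac4, and 4 in Hdac9. Integrin, adhesion and costimulation genes had members in 6 of 17 (35.3%, interval 14.2 to 61.7%), and in 5 of 8 with accessible promoters (62.5%). The semaphorin receptor genes Nrp1 and Plxnc1 and the adaptor gene Pag1 held 4 each, and Cd44, an adhesion receptor gene, held 2.

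Neuronal adhesion and synapse genes had 42.1 Mb of deep space in 50 genes, of which 2 had an accessible promoter, and members in 5 genes (10%, interval 3.33 to 21.8%). Of the 48 without an accessible promoter, 4 held a member (8.33%, interval 2.32 to 19.98%), beside 11.2% of all genes without one. Of the other 2, 1 held a member. The list had 0.238 members per Mb, against 23.5 for the lymphocyte factors, 22.4 for antigen receptor signalling and 21.5 for the cytokine list. Over all genes with deep space it was 4.39 per Mb. These lists differed in promoter state and in space, with a median of 780.0 kb per neuronal gene. All genes without an accessible promoter and with over 400 kb of deep space had 0.389 members per Mb, and 15.9% of them held a member. In the longer pseudoreplicated list the neuronal share was 36.0%, against 35.5% of all genes with deep space, so the share lay below that of all genes in the thresholded list and not in the longer one. Magi2 held 4 members (folds of 14.2 to 20.2), Dlg2 held 3, and Cntn4, Nrxn3 and Tenm4 held 1 each. Lsamp (1951.5 kb of deep space), Cntnap2 (1930.3 kb), Ptprd (1787.2 kb) and Lrp1b (1733.3 kb) held none. Genes of other blood and solid tissue cells had members in 7 of 33 (21.2%, interval 8.98 to 38.9%), in 1 of 5 with and 6 of 28 without accessible promoters. Bank1, a B cell adaptor gene, and Trps1 held 3 each, while Dmd, the dystrophin gene, held none in 1984.8 kb.

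**Figure D4:**
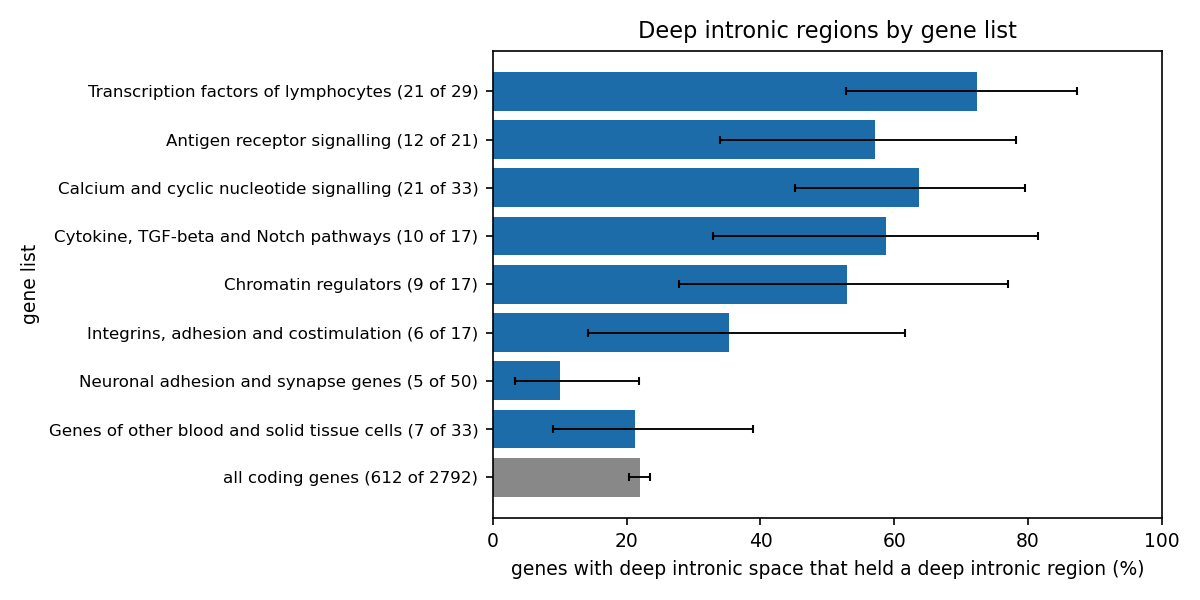
Share of genes with deep intronic space that held at least 1 deep intronic region (%), for 8 gene lists and for all such coding genes (grey), with exact binomial 95% intervals and counts beside each name. The lymphocyte transcription factor list stood at 72.4%, the neuronal list at 10%, and all genes at 21.9%. The lists were not matched for promoter state or for deep space, and they were chosen with earlier results of these data known.

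Motif letters were counted in the 101 bp centred on each summit, on both strands, and in windows 500 bp to either side. An ETS match was found in 526 members (36.2%, interval 33.7 to 38.7%), against 12.3% of flanking windows, a ratio of 2.93. RUNX matches were found in 321 (22.1%, 19.95 to 24.3%), against 6.84%, a ratio of 3.23. AP-1 matches were found in 140 (9.62%, 8.16 to 11.3%), against 2.85%, a ratio of 3.37. The CTCF motif was rarer, in 92 members (6.32%, 5.13 to 7.70%), and its ratio was the greatest of these 4, 10.2 times the 0.619% of flanking windows. At least 1 of these 4 motifs was present in 889 members (61.1%), and ETS and RUNX together in 104 (7.15%). Flanks had a lower GC content, 44.1 against 48.5%, and its part in these ratios was not tested.

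The members resembled other distal regions more than promoters. ETS matches were in 34.9% of nearer intronic, 32.8% of distant intergenic, 17.2% of promoter and 27.0% of all regions. RUNX matches were in 19.5, 20.3, 5.11 and 13.7%, and AP-1 matches in 8.83, 10.5, 2.22 and 6.35%. For CTCF the shares were 9.05% (8.40 to 9.73%) in nearer introns, 6.93% in distant intergenic, 1.92% in promoter and 7.13% in all regions. The interval for CTCF in nearer introns lay above that of the members. For ETS, RUNX and AP-1 the intervals of members and nearer introns overlapped. The GC-rich SP motif (GGGCGGGG) was in 1.17% of members and 17.2% of promoter regions. Only sites spelled AGGAAG were counted as ETS, so ETS sites with other letters were missed in every class. The part this played in the lower ETS share of promoter regions was not tested.

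**Figure D5:**
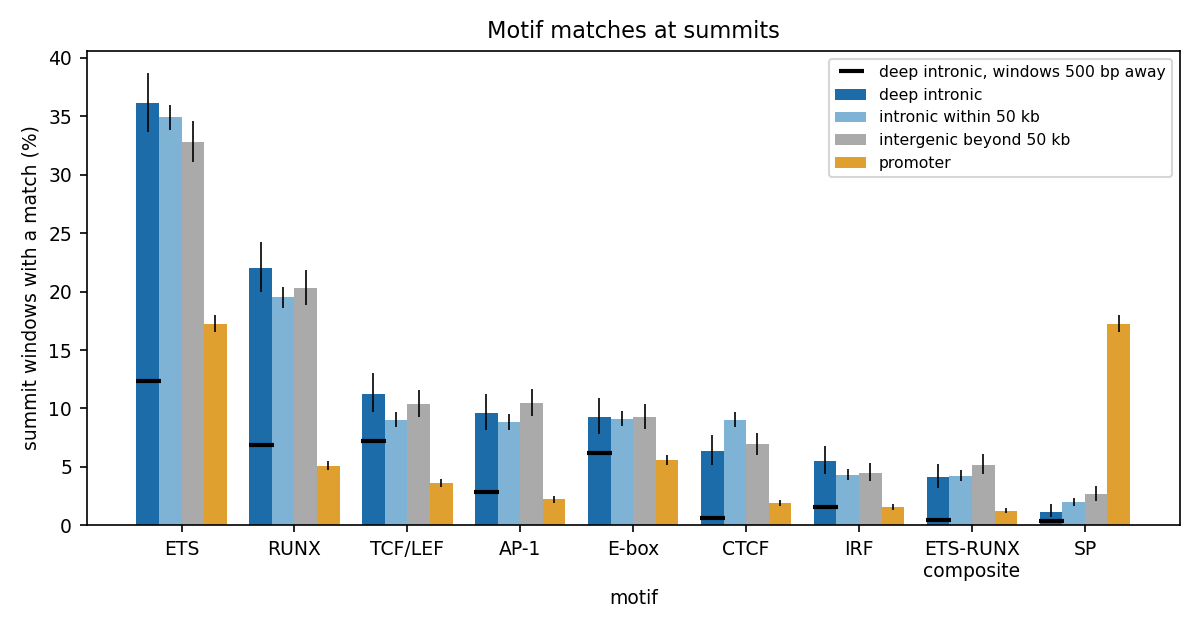
Share of 101 bp summit windows with a motif match (%), for deep intronic regions, intronic regions within 50 kb of a start, intergenic regions beyond 50 kb and promoters, with exact binomial 95% intervals; black lines give deep intronic flanking windows 500 bp away. ETS matches were in 36.2% of deep intronic summits and 12.3% of flanks, and the SP motif was highest at promoters (17.2%).

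Among other motifs, IRF (GAAANNGAAA) was in 5.50% of members against 1.58% of flanks, and the ETS-RUNX composite (GGATGTGG), which shares letters with the RUNX motif, was in 60 members (4.12%) against 0.447%. TCF/LEF (CTTTGA) was in 11.3% against 7.25%. The STAT motif (TTCNNNGAA) was in 3.30% of members and 3.26% of flanks. The Forkhead motif, which Foxp3 family factors bind, was spelled TGTTTAC and found in 1.72% of members and 1.34% of flanks. For the motif of NFAT, a factor activated by calcium signals (TGGAAAA), the share in members was below that in flanks, 2.27 against 3.30%. Fold did not separate members with and without a motif. The median was 12.8 (12.03 to 13.8) with and 12.1 (11.8 to 12.5) without an AP-1 match, 12.3 and 12.1 for ETS, 12.7 and 12.1 for RUNX, and 11.8 and 12.2 for CTCF, with overlapping intervals in each case. Motif content also overlapped between hosts with and without an accessible promoter: RUNX 23.0 (20.6 to 25.5) and 17.9% (13.5 to 23.1), CTCF 5.95 (4.68 to 7.45) and 8.02% (5.03 to 11.99).

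Nearly all members were found in a further deposited list. In the authors' pseudoreplicated list, which is longer, 1450 of the 1455 members (99.7%, interval 99.2 to 99.9%) were found again. Both lists were derived from the same alignment, so this share was largely set beforehand, and the share over all regions is not given here. That list held 3441 deep intronic regions by the same rule. The 1991 of them that matched no member were weaker and narrower, with a median fold of 5.38 and a median width of 306 bp. Part of this difference follows from the thresholding of the shorter list.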

How the data were processed

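The 2 libraries of 1 mouse were represented by lists of peaks that the authors derived on mm10 from 1 filtered alignment, per the text files that accompany the samples; the pseudoreplicated and thresholded lists also drew on another file that is not named. The same lists were given for both samples and were taken to pool them. Each peak carries a deposited fold (a linear ratio to background), a −log10 p-value and a score up to 1000, the authors' values, used here to describe and rank peaks within a list. Not given in the sources used here were the aligner, the peak caller, their versions, the shift for Tn5 and the read depth, so no value per library was analysed and no interval covers sequencing depth. Deposited peak intervals were merged and placed on GRCm38.p6 with GENCODE M21, using Python 3.11.15, numpy 2.4.6, pandas 2.3.3 and scipy 1.17.1, after all 21 chromosome names matched and 0 regions ran past a chromosome end. Shares have exact binomial (Clopper-Pearson) 95% intervals, medians have intervals from order statistics, and ratios of densities have exact conditional intervals; all cover counting error only, and no p-value was computed. The merging and motif search were tested on simulated data. The hosts named were the 12 with most members (Tox tied with the last 2 at 11 and ranked lower per 100 kb), the 5 with most per 100 kb among those with 3 or more, and in each list up to 4 hosts with most members (ties included) and examples of genes with over 100 kb of deep space and no member. The regions named were taken from the 10 of greatest fold, the 5 farthest from a start, the 3 on either side of the limit and those of greatest fold with each motif. The 23 motifs were consensus letters, and the 9 gene lists had 392 entries (390 genes). Results for 1 region and 1 gene list are not reported here. The members, lists and motifs were chosen with earlier results of these data known. Alternatives changed the list of peaks, the fold threshold, the distance limit, the annotation, the summit and the windows.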

Additional observations from a re-analysis of the deposited data

How the results depend on the processing

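The values that moved beyond their 95% counting interval are given by setting. With the pseudoreplicated list there were 3441 members, with a density relative to the genome of 0.526, a median fold of 7.33, a median width of 397 bp, members in 35.5% of genes with deep space, ETS matches in 32.5% and RUNX matches in 18.3%. With the upper 50% of regions by fold there were 624, and these values were 0.344, 16.6, 659 bp, 14.9% and, for RUNX, 24.5%; the ratio of densities between genes with and without an accessible promoter was 2.92. Part of these shifts follows from choosing regions by fold. This choice also moved hosts with a weaker promoter region to those without an accessible promoter. Over 25 kb from a start there were 3098 members, with a relative density of 0.577 and a promoter ratio of 7.44, and over 100 kb there were 550, with 0.262 and 11.6. Counting starts of all transcripts, noncoding ones included, left 418 members, a relative density of 0.260, members in 13.7% of genes and a promoter ratio of 16.7; the cause of this last shift was not tested. Within 100 bp of the summit, motif shares were 13.7% for AP-1, 49.2% for ETS and 32.4% for RUNX, in a longer window. A further 39 values stayed within the interval, among them all those under exons of coding genes alone and a promoter window of 2000 bp. Taking the summit by −log10 p moved the summit of 0 members, so it tested nothing here. In 2 further settings chosen after seeing the data, list shares moved in 4 cases and stayed in 14: with the pseudoreplicated list the neuronal list rose from 10 to 36.0% and the list of other tissues from 21.2 to 42.4%, against 35.5% of all genes, and with the upper 50% by fold the lymphocyte factors stood at 48.3% and antigen receptor signalling at 33.3%, against 14.9%. Leaving out a replicate could not be run, since the lists hold no values labelled by library, and no paired analysis was possible because there was 1 group. With the depth unknown, a gene without a member is one in which none was called.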

Other observations

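Members were sparse on the X chromosome. It held 18 members in 16.9 Mb of deep intronic space, or 1.07 per Mb, against 1437 in 319.5 Mb of the autosomes, or 4.50 per Mb, with a range over single autosomes of 3.03 to 6.30. The ratio of autosomes to X was 4.22 (exact interval 2.66 to 7.14). The same ratio for other classes of region is not given here, so it is not shown to be particular to deep intronic regions. In hosts with an accessible promoter there were 10 members in 3.83 Mb of the X chromosome (2.61 per Mb) and 1183 in 109.2 Mb of autosomes (10.8 per Mb), a ratio of 4.15 (2.25 to 8.67). In hosts without one, the X chromosome had 8 members in 13.0 Mb (0.613 per Mb) and autosomes 254 in 210.3 Mb (1.21 per Mb), a ratio of 1.97 (0.985 to 4.61) whose interval includes 1. The mouse was male and had a single X chromosome, so copy number and chromosome cannot be told apart in these lists. Of the members on X, those in Diaph2 and Il1rapl1 were the 2 farthest from a coding start.

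A few hosts were genes best known from other cell types. Tnr, which encodes the neural extracellular matrix protein tenascin R, had 3 members, the highest with a fold of 23.4 and a CTCF match, and no accessible promoter. Ryr3 and Prkg1, known from muscle, had 3 members each without an accessible promoter. The Ryr3 member of greatest fold reached 27.6, while its other members were at 10.4 and 10.5. In Prkg1 the median of the 3 was 14.9 and the highest 26.8.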
